A study of Mus musculus with 10 samples.

Results

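The T cell receptor complex and its coreceptors were followed through 10 genes chosen by symbol: Trac, Trbc1, Trbc2 and Trdc, the constant regions of the antigen-binding chains, Cd3e, Cd3d, Cd3g and Cd247, the signaling chains, and Cd4 and Cd8a, the coreceptors. They are 10 of the 29890 genes in the expression table, and their transcript levels were set beside the alpha chain (TRA) and beta chain (TRB) entries of the authors' receptor repertoire table. Membership was set by symbol and no measured value entered the rule, but earlier results of these data were known when the members were chosen.

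Most T cells carry a receptor made of an alpha and a beta chain, and a smaller lineage carries a gamma and a delta chain. The variable part of each chain is assembled from V, D and J segments and differs from clone to clone, while the constant region is shared, so that constant region transcripts report on all clones together and rearranged sequences on single clones. The chains have no signaling tail of their own and pass the signal through the CD3 chains and the zeta chain encoded by Cd247. The coreceptor CD4 binds MHC class II and marks helper and regulatory T cells, whereas CD8 binds MHC class I and marks cytotoxic T cells, the cells that can kill tumor cells directly.

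Tumors of the mouse melanoma line B2905-M4 were grown under the skin of female C57BL/6J mice aged 7 to 8 weeks, and no mouse received immunotherapy. The labels give 5 tumors as overexpressing Adamts7, a gene for a metalloproteinase that cells secrete, and 5 as carrying the vector (Vec in the labels, vector tumors here). The harvest was spread over time, with 2 Adamts7 tumors on day 35, 3 tumors from either group on day 45, and 2 vector tumors on day 50 once they had reached a usable size; no tumor is tied to a day, so time of growth and group cannot be told apart. The hosts kept their own T cells, and each tumor gave 1 library of polyadenylated RNA from the whole tumor.

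Levels are in TPM, a transcript abundance that is scaled for transcript length and to the total of each library, so that levels of different genes can be set side by side but the read depth of a tumor is unknown. The deposited values sum to between 995286 and 998019 TPM per tumor. Adamts7 itself was at 74.8 to 96.0 TPM in Adamts7 tumors 1 to 4, at 18.2 TPM in the tumor labelled Adamts7 5, and at 6.49 to 28.3 TPM in the vector tumors, and vector tumors 3 and 5 both exceeded the tumor labelled Adamts7 5. These 2 vector tumors also stood apart in the tissue around the T cells. The summed level of 8 pigment cell genes, which mark the melanoma cells, was at least 7815 TPM in each of the other 8 tumors but 44.2 and 1634 TPM in this pair, and that of 9 pan-leukocyte genes was 1720 and 1748 TPM against 123 to 519 TPM. Markers of T cells were present in every tumor, with a sum over 10 genes of 14.7 to 39.7 TPM in the Adamts7 tumors and 34.9 to 303 TPM in the vector tumors. Group differences of the tested members, their ratios and their repertoires are therefore given with and without these 2 tumors. In bulk tissue, fewer T cells and less receptor RNA per T cell cannot be told apart.

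The beta chain has 2 constant region genes that lie close together on chromosome 6, and their sequences set how well their transcripts can be separated. In the GENCODE transcripts of the build GRCm38, an older build than mm39, which the submitters' processing notes name, the coding parts of Trbc1 and Trbc2 are 518 bases long each and differ at 23 bases, an identity of 95.6%. Coding exon 1, the immunoglobulin-like domain, differs at 1 of 375 bases, given as C260A counted from the first base of that exon with Trbc1 first, and the longest stretch without a difference is 259 bases. Paired reads of 150 bases can lie wholly within that stretch, so the division of reads between these genes is an estimate and their sum is the safer measure. Of the 23 differences, 15 lie in the 107 bases of coding exon 3, which holds the membrane-spanning part. It is shown because it holds most of the coding differences, although coding exons 2 and 4, of 18 bases each, differ at 3 and 4 bases. The untranslated parts were not compared. Differing bases are in capitals, for chr6:41539229-41539335 (Trbc1) and chr6:41547772-41547878 (Trbc2), both on the plus strand.
Trbc1: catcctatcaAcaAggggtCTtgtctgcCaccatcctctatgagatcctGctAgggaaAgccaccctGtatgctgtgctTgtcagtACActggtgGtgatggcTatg
Trbc2: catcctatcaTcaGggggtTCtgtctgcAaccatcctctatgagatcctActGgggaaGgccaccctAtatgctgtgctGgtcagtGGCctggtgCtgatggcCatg

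Every member had a lower mean in the Adamts7 tumors, and none of the 9 that could be tested passed the threshold over all genes. Each of the 10 members had vector tumors 3 and 5 as its 2 highest tumors, with vector tumor 3 on top for 8 members and vector tumor 5 for Cd247 and Cd4. Adamts7 tumor 1 was the highest of its group for 9 members, the exception being Trbc2. Ordered by mean level, the vector tumors ran from Trbc2 through Cd3g, Trac, Trbc1, Cd8a, Cd3e, Cd3d, Cd247 and Cd4 down to Trdc, and the Adamts7 tumors from Trbc2 through Trac, Cd3g, Cd3e, Cd4, Cd8a, Trbc1, Cd247 and Cd3d down to Trdc. In both orders neighbouring genes differed by less than the SD of the tumors, except Trdc, which lay below the gene before it by more than that gene's SD.

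**Figure D1:**
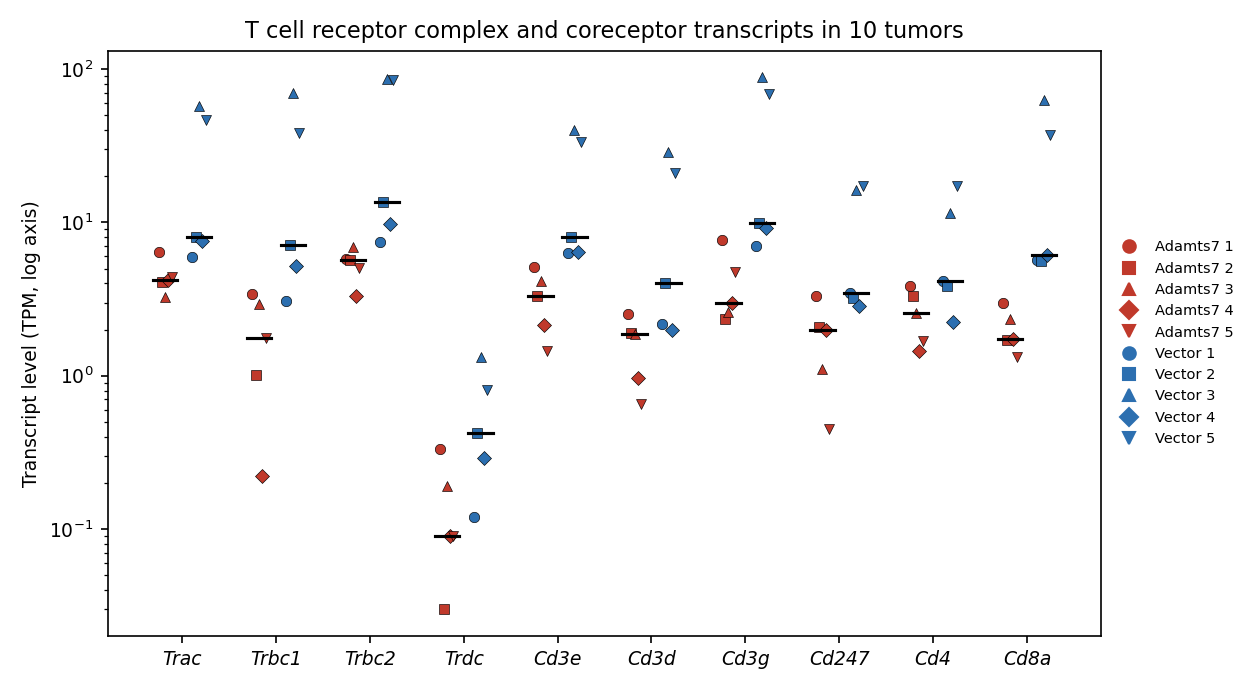
TPM (log axis) of the 10 members in each of the 10 tumors, with red symbols for Adamts7 tumors, blue symbols for vector tumors, a shape for each tumor number and a black bar at the group median. Vector tumors 3 and 5 are the 2 highest tumors for all 10 genes, and the groups do not overlap for Trbc2, Cd3e and Cd8a.

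The constant region of the alpha chain, encoded by Trac, had levels of 6.46, 4.08, 3.27, 4.20 and 4.38 TPM over the Adamts7 tumors, in the order of their numbers as in every list here. In vector tumors 1 to 5 Trac had levels of 5.93, 8.00, 57.2, 7.59 and 46.3 TPM. Vector tumor 1 lay below Adamts7 tumor 1, so the groups overlapped, and vector tumors 2 and 4 were less than 2 TPM above Adamts7 tumor 1. The means were 4.48 ± 1.19 and 25.0 ± 24.7 TPM (SD, n = 5 each), and the log2 fold change of Trac, given throughout as Adamts7 against vector on the log2(TPM + 1) scale, was -1.67 with a standard error of 0.59 (limma, adjusted p = 0.178).

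Trbc2, a beta chain constant region, was at 5.76, 5.73, 6.94, 3.30 and 5.01 TPM in the Adamts7 tumors and at 7.47, 13.6, 86.7, 9.84 and 84.8 TPM in the vector tumors. Every vector tumor lay above every Adamts7 tumor, by the smallest margin for vector tumor 1. Trbc1, its neighbour, was at 3.39, 1.01, 2.95, 0.22 and 1.77 TPM against 3.09, 7.15, 70.4, 5.19 and 38.5 TPM, and here vector tumor 1 fell within the Adamts7 range. The log2 fold changes were -2.02 for Trbc2 (SE 0.66, limma adjusted p = 0.155) and -2.45 for Trbc1 (SE 0.76, limma adjusted p = 0.142). The estimate for Trbc1 was the most negative of the members, and its 95% interval ran from -4.13 to -0.77. Summed over both genes, beta chain constant regions were at 9.15, 6.74, 9.89, 3.52 and 6.78 TPM against 10.6, 20.8, 157, 15.0 and 123 TPM, without overlap. Trbc1 made up 6.25% to 37.0% of that sum in the Adamts7 tumors and 29.3% to 44.8% in the vector tumors; the lowest share, in Adamts7 tumor 4, comes from a Trbc1 level of 0.22 TPM.

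Trdc, the constant region of the delta chain, was near the lower end of the measured range in every tumor. It was at 0.33, 0.03, 0.19, 0.09 and 0.09 TPM in the Adamts7 tumors and at 0.12, 0.42, 1.33, 0.29 and 0.81 TPM in the vector tumors, with overlap. Its mean over all tumors of 0.37 TPM was below the minimum of 1 TPM for the test, and in the fit without that minimum its log2 fold change was -0.43 (SE 0.18, limma adjusted p = 0.344). The ratio of Trdc to Trac ran from 0.00735 to 0.0581 in the Adamts7 tumors, a range that contains the 0.0175 to 0.0525 of the vector tumors; the mean log2 ratio differed by 0.50 (exact permutation p = 0.246), and by 0.04 without vector tumors 3 and 5. Transcripts of the gamma chain constant regions, the partners of the delta chain, were low too. Trgc2, the most abundant of them, was at 0.14 to 1.02 TPM in the Adamts7 tumors and at 1.52, 0.46, 12.9, 2.39 and 8.86 TPM in the vector tumors (log2 fold change -1.52, SE 0.56, limma adjusted p = 0.187). Vector tumors 3 and 5 again held the most, and without them the log2 fold change of Trgc2 was -0.58 (limma adjusted p = 0.480).

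Cd3e, a CD3 chain that pairs with both other CD3 chains, was at 5.10, 3.32, 4.16, 2.14 and 1.44 TPM in the Adamts7 tumors and at 6.33, 7.98, 40.4, 6.46 and 33.3 TPM in the vector tumors. The groups did not overlap, though the gap between Adamts7 tumor 1 and vector tumor 1 was small beside the spread of the vector tumors. Its log2 fold change was -1.88 with a standard error of 0.53 (limma, adjusted p = 0.128).

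Cd3g, the gamma chain of CD3, was at 7.70, 2.36, 2.60, 2.96 and 4.74 TPM against 6.97, 9.93, 88.5, 9.20 and 69.1 TPM. Cd3d, the delta chain of CD3, was at 2.53, 1.90, 1.88, 0.96 and 0.65 TPM against 2.17, 4.03, 28.7, 2.00 and 21.2 TPM. In both genes Adamts7 tumor 1 reached into the vector range, past vector tumor 1 for Cd3g and past vector tumors 1 and 4 for Cd3d. The log2 fold changes were -2.24 for Cd3g (SE 0.69, limma adjusted p = 0.142) and -1.67 for Cd3d (SE 0.65, limma adjusted p = 0.199).

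Cd247 encodes the zeta chain, which natural killer cells also use to signal from Ncr1. It was at 3.33, 2.08, 1.11, 2.00 and 0.45 TPM in the Adamts7 tumors and at 3.46, 3.22, 16.2, 2.83 and 17.3 TPM in the vector tumors. Vector tumors 1, 2 and 4 lay between 2.83 and 3.46 TPM, and Adamts7 tumor 1 lay above 2 of them, while the tumor labelled Adamts7 5 was the lowest. The log2 fold change was -1.51 with a standard error of 0.52 (limma, adjusted p = 0.169).

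Cd8a, which encodes the alpha chain of CD8 and is also found on a subset of dendritic cells, separated the groups most clearly among the members. It was at 2.98, 1.72, 2.33, 1.73 and 1.33 TPM in the Adamts7 tumors and at 5.70, 5.57, 62.8, 6.09 and 37.2 TPM in the vector tumors. The lowest vector tumor was above the highest Adamts7 tumor, and vector tumors 1, 2 and 4 were within 1 TPM of each other. The means were 2.02 ± 0.646 and 23.5 ± 25.8 TPM (SD, n = 5 each), and the log2 fold change of Cd8a was -2.34 with a standard error of 0.64 (limma, adjusted p = 0.121). Cd8b1, the beta chain of CD8, which those dendritic cells lack, was at 2.28, 1.22, 0.59, 0.93 and 0.66 TPM against 3.10, 3.44, 31.5, 3.42 and 17.3 TPM, without overlap either. Its log2 fold change was -2.07 (SE 0.58, limma adjusted p = 0.126), and -1.07 without vector tumors 3 and 5 (limma adjusted p = 0.147). Cd8a was 1.31 to 3.95 times Cd8b1 in the Adamts7 tumors and 1.62 to 2.16 times Cd8b1 in the vector tumors.

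Cd4, the helper T cell coreceptor, differed least among the tested members. It was at 3.86, 3.33, 2.56, 1.46 and 1.69 TPM in the Adamts7 tumors and at 4.18, 3.85, 11.5, 2.24 and 17.3 TPM in the vector tumors. Vector tumors 1 and 2 lay close to Adamts7 tumor 1, and vector tumor 4 lay below 3 of the 5 Adamts7 tumors. The means were 2.58 ± 1.03 and 7.81 ± 6.39 TPM (SD, n = 5 each), with a log2 fold change of -1.05 (SE 0.45, limma adjusted p = 0.232).

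Read against all genes, the members' shift was in the direction of most genes but larger. All 9 tested members had a negative log2 fold change, as did 60.2% of the 15276 genes tested, with a median of -1.88 against -0.10 over all genes. Of these 9, 0 passed at an adjusted p under 0.05, where limma called 0.196% of all genes lower and 0.0262% higher. An unadjusted limma p under 0.05 was found for 9 of 9, against 15.3% of all genes that were lower at that level. All 9 were highest in vector tumors 3 and 5, so these are not 9 separate results. The groups did not overlap in 3 of the 9, Trbc2, Cd3e and Cd8a, where 3.78% of all genes had every Adamts7 tumor below every vector tumor. Scaling by median of ratios moved the median of all genes from -0.10 to 0.01 and quantile normalization moved it to 0.04, and all 9 members stayed negative, with medians of -1.78 and -1.73. The p-values describe the spread between these tumors, which the design text places in separate mice only in general terms.

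Other tests and other sets of tumors placed the members differently relative to a threshold. In the authors' deposited table, which was computed from counts, all 10 members had a negative log2 fold change and 8 had an adjusted p under 0.05, where 5.48% of its genes were called lower and 7.96% in either direction. Cd8a had the largest test statistic of the members there, with a log2 fold change of -3.42, a standard error of 0.648 and an adjusted p of 3e-05 in the authors' deposited table. The exceptions in the authors' deposited table were Cd4, with a log2 fold change of -1.48 and an adjusted p of 0.0554, and Trdc, with -1.93 and 0.0660. That table and the limma fit use the same tumors, so they are not separate evidence.

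Without vector tumors 3 and 5 the limma log2 fold changes were closer to 0 for all 9 members, with a median of -0.83 in place of -1.88. An unadjusted limma p under 0.05 was found for 6 of the 9, where 1510 of all 15276 genes were lower at that level. Cd8a went from -2.34 to -1.19 with a standard error of 0.20, as its remaining tumors lay close together (limma, adjusted p = 0.0698). Trbc1 was at -1.19, Cd3g at -1.02, Cd3e at -0.97 and Trbc2 at -0.83. Cd247, Trac and Cd3d were at -0.67, -0.59 and -0.54, and Cd4 was at -0.32 with a limma adjusted p of 0.685. With the tumor labelled Adamts7 5 also removed, Cd8a passed, with a log2 fold change of -1.11 and a limma adjusted p of 0.0275; it was the only member that did, where 3.95% of all genes were called lower. Limma's array weights, which give less weight to tumors that deviate from their group, also called Cd8a alone among the members, with a log2 fold change of -1.43 and a limma adjusted p of 0.0425, where 6.26% of all genes were called lower.

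**Figure D2:**
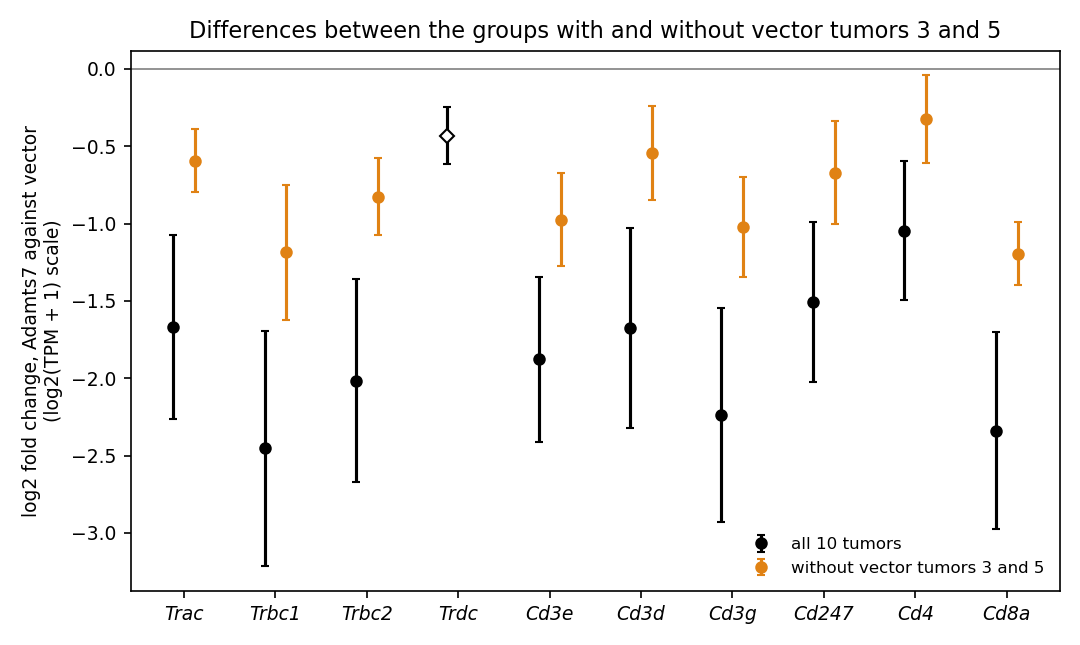
Log2 fold change of each member, Adamts7 against vector, on the log2(TPM + 1) scale, with bars of 1 standard error from limma, for all 10 tumors (black) and without vector tumors 3 and 5 (orange); the open diamond for Trdc is from the fit with no minimum level. All values lie below 0, and Cd8a is the most negative in the smaller set at -1.19 with the smallest standard error.

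The coreceptor transcripts differed in balance between the groups. In bulk tissue the cells that made them were not identified, so these ratios do not measure the balance of T cell subsets. Cd8a was above Cd4 in 5 of 5 vector tumors and below Cd4 in 4 of 5 Adamts7 tumors, the exception being Adamts7 tumor 4. The ratio of Cd8a to Cd4, both in TPM, was 0.772, 0.517, 0.910, 1.18 and 0.787 in the Adamts7 tumors and 1.36, 1.45, 5.44, 2.72 and 2.16 in the vector tumors. The groups did not overlap, and the smallest gap lay between Adamts7 tumor 4 at 1.18 and vector tumor 1 at 1.36. With 0.1 TPM added to each gene, the mean log2 ratio was lower by 1.48 in the Adamts7 tumors, a 2.79-fold difference (exact two-sided permutation test, p = 0.00794). Over the 10 ratios tested the adjusted p was 0.0794, so it did not pass at 0.05. Without vector tumors 3 and 5 the difference was -1.09. The groups did not overlap over all 10 tumors and so had to remain apart. The exact permutation p was therefore fixed at 0.0357, the smallest that 5 against 3 tumors allow.

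Set against the summed CD3 chains, which was taken as a measure of total T cell receptor RNA, the coreceptor transcripts lay on opposite sides. Cd8a was 0.194 to 0.285 of the CD3 sum in the Adamts7 tumors and 0.254 to 0.398 in the vector tumors, a difference of -0.46 in mean log2 ratio with 0.1 TPM added (exact permutation test, p = 0.0317, adjusted p = 0.0794). This difference shrank to -0.31 with 0.5 TPM added (exact permutation p = 0.0952) and to -0.17 with 1 TPM added (exact permutation p = 0.294). Cd4 was 0.241 to 0.439 of the CD3 sum against 0.0732 to 0.270, a difference of 1.02 (exact permutation test, p = 0.0317, adjusted p = 0.0794). Cd4 was lowest relative to CD3 in vector tumor 3, the tumor with the most CD3. Both ratios overlapped between the groups, and without vector tumors 3 and 5 the differences were -0.42 for Cd8a (exact permutation p = 0.107) and 0.67 for Cd4 (exact permutation p = 0.143).

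The receptor chains were set against CD3 in the same way. The beta chain sum was 0.581 to 1.14 times the CD3 sum in the Adamts7 tumors and 0.683 to 0.997 times in the vector tumors, with a log2 difference of -0.12 (exact permutation p = 0.619) and of -0.01 without vector tumors 3 and 5. Trac was 0.378 to 0.693 of the CD3 sum against 0.363 to 0.430, a log2 difference of 0.45 (exact permutation p = 0.0397, adjusted p = 0.0794). The vector tumors, high and low, lay in a narrow band of this ratio, and 3 of 5 Adamts7 tumors lay above that band. The difference for Trac was 0.41 without vector tumors 3 and 5 (exact permutation p = 0.179). For Cd247 the ratio ran from 0.0659 to 0.330 against 0.103 to 0.224 (log2 difference 0.30, exact permutation p = 0.492, and 0.08 without vector tumors 3 and 5), and the tumor labelled Adamts7 5, with 0.45 TPM of Cd247, was the lowest of all.

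Ptprc encodes CD45, which all leukocytes carry, and relates the receptor genes to immune cells in general. It was at 23.4, 11.1, 10.5, 8.33 and 6.11 TPM in the Adamts7 tumors and at 14.7, 19.2, 103, 17.5 and 95.4 TPM in the vector tumors, so that Adamts7 tumor 1 exceeded 3 vector tumors. The CD3 sum was 0.654, 0.682, 0.823, 0.727 and 1.12 times Ptprc in the Adamts7 tumors and 1.05, 1.15, 1.53, 1.01 and 1.30 times in the vector tumors. The tumor labelled Adamts7 5 was alone in its group in reaching the vector range. The log2 difference was -0.60 (exact permutation p = 0.0238, adjusted p = 0.0794), and without vector tumors 3 and 5 it was -0.44 (exact permutation p = 0.107).

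None of the 10 ratios passed at 0.05 after adjustment over the 10 with 0.1 TPM added; 5 had an unadjusted exact permutation p under 0.05. With 0.5 or 1 TPM added, 5 ratios passed: Cd8a to Cd4 with an exact permutation adjusted p of 0.0397 at both settings, Cd4 to CD3, Trac to CD3 and CD3 to Ptprc at 0.0476, and Trdc to Trac at 0.0397. The last is set by the added value itself, since Trdc lies below 0.5 TPM in 8 of 10 tumors. The adjustment ranks the 10 ratios together, so the adjusted p of the others depends on Trdc to Trac as well. For Cd8a to Cd4 the unadjusted exact permutation p was 0.00794 with 0.1, 0.5 and 1 TPM added. Its log2 difference shrank from -1.48 to -1.39 with 0.5 TPM and to -1.29 with 1 TPM added.

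**Figure D3:**
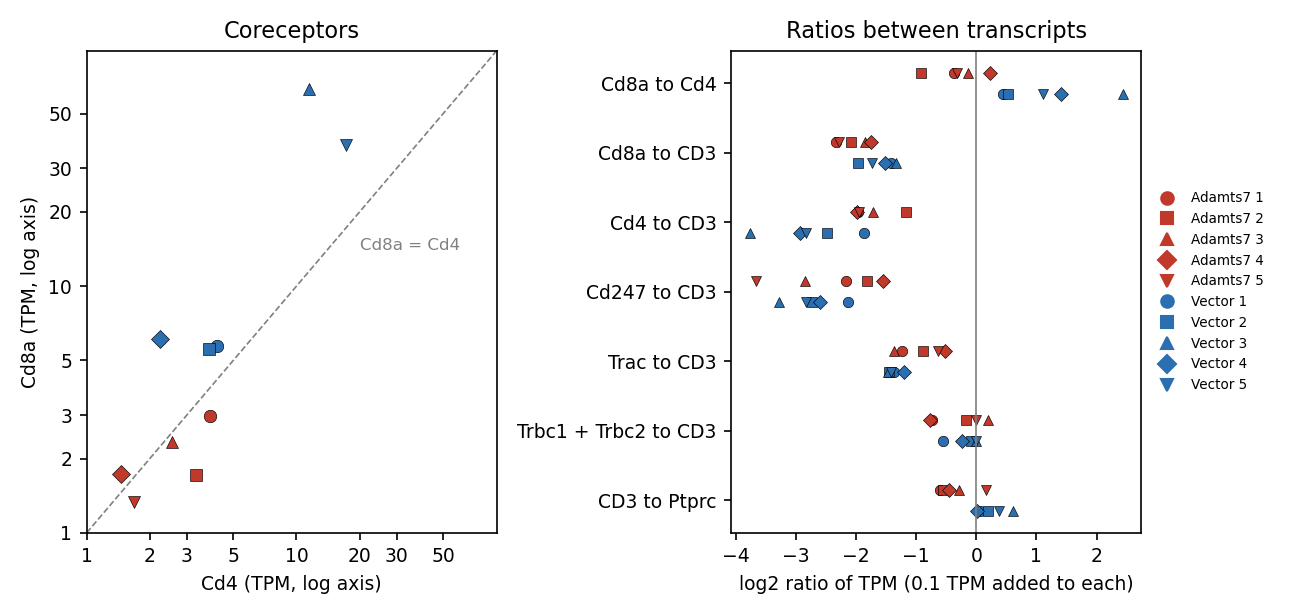
Left, Cd8a against Cd4 in TPM on log axes, with a dashed line where both are equal; right, log2 ratios of TPM between members with 0.1 TPM added to each, where CD3 is the sum of Cd3e, Cd3d and Cd3g. The 5 vector tumors (blue) lie above the line and 4 of 5 Adamts7 tumors (red) below it, while the beta chain to CD3 ratio overlaps fully.

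The repertoire table gave the rearranged receptors behind these transcripts. It counts clonotypes, which are distinct receptor sequences, and clones, the total number of sequences assigned to them, and neither is scaled to depth. TRA clonotypes numbered 10, 8, 4, 3 and 6 in the Adamts7 tumors and 14, 13, 51, 13 and 72 in the vector tumors. TRB clonotypes numbered 5, 9, 9, 5 and 9 against 17, 23, 87, 19 and 94. In both chains every vector tumor held more than every Adamts7 tumor, and vector tumor 5 held the most.

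TRB clones numbered 5, 13, 11, 5 and 12 in the Adamts7 tumors and 20, 29, 218, 29 and 259 in the vector tumors, again without overlap. TRA clones numbered 16, 13, 6, 3 and 8 against 17, 13, 89, 14 and 160. In this count the groups met, as Adamts7 tumor 1 exceeded vector tumors 2 and 4. Of the 8 TRA and TRB measures, 5 differed at an exact permutation p of 0.00794, the smallest that 252 arrangements allow, with an adjusted p of 0.0317 over the 20 measures of the table. They were the clonotype number and the entropy of both chains and the TRB clones. Entropy rises with the clonotype number, so these measures are not separate results. In Adamts7 tumor 4 it was 1.58 for 3 TRA clonotypes and 2.32 for 5 TRB clonotypes. For TRA clones the exact permutation p was 0.0397, with an adjusted p of 0.113; the mean difference was -49.4, and -5.47 without vector tumors 3 and 5. Without vector tumors 3 and 5 the mean difference in TRB clones went from -101.8 to -16.8, that in TRB clonotypes from -40.6 to -12.3 and that in TRA clonotypes from -26.4 to -7.13. Groups that do not overlap over all 10 tumors cannot overlap in fewer, so the 5 measures had to stay apart there. Their exact permutation p of 0.0357, the smallest possible, does not pass after adjustment (0.143) and is no check on these 2 tumors.

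Evenness was described by clonality. Clonality is 0 when every clonotype has as many clones as the next and nears 1 when a single clonotype dominates. TRB clonality was at most 0.0466 in the Adamts7 tumors, at most 0.0411 in vector tumors 1, 2 and 4, and 0.143 and 0.169 in vector tumors 3 and 5. The group difference was -0.0544 (exact permutation p = 0.198, adjusted p = 0.344), and the difference without vector tumors 3 and 5 was -0.00187. TRB clones per clonotype told the same tumors apart, at 2.51 and 2.76 in vector tumors 3 and 5 and between 1.00 and 1.53 in the other 8 tumors. Neither measure was corrected for the number of TRB clones, which was 218 and 259 in that pair and 5 to 29 elsewhere. In Adamts7 tumors 1 and 4, with 5 TRB clones in 5 clonotypes, TRB clonality was 0. Whether the number of clones sets these differences was not tested. TRA clonality had means of 0.0497 and 0.0473 (exact permutation p = 0.897), and a difference of 0.0362 without vector tumors 3 and 5 (exact permutation p = 0.179). Within the vector group TRA clonality was 0.102 and 0.0941 in tumors 3 and 5 and at most 0.0308 in the others, and TRA clones per clonotype were also highest in that pair, at 1.75 and 2.22 against at most 1.63 in the other 8 tumors. The highest single TRA clonality, 0.104, was in Adamts7 tumor 3, which held 6 TRA clones. TRA clones numbered 89 and 160 in vector tumors 3 and 5 and 3 to 17 elsewhere, and TRA clonality was not corrected for this either.

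Clones and constant region transcripts were drawn from the same libraries, so they are not separate samples of the T cells. TRB clones per TPM of Trbc1 and Trbc2 were 0.546, 1.93, 1.11, 1.42 and 1.77 in the Adamts7 tumors and 1.89, 1.40, 1.39, 1.93 and 2.10 in the vector tumors. TRA clones per TPM of Trac were 2.48, 3.19, 1.83, 0.714 and 1.83 against 2.87, 1.63, 1.55, 1.84 and 3.46. Neither ratio differed between the groups beyond its spread, with log2 differences of -0.41 for TRB (exact permutation p = 0.294) and -0.21 for TRA (exact permutation p = 0.675), and of -0.42 and -0.14 without vector tumors 3 and 5. The lowest TRB yield was in Adamts7 tumor 1, which had 5 TRB clones beside 9.15 TPM of beta chain transcripts.

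Vector tumors 3 and 5 formed a cluster of their own in both relations, so no value was pooled over all tumors. Over the other 8 tumors, Pearson's r between beta chain TPM and TRB clones was 0.862 (exact permutation p = 0.00476, adjusted over 2 relations 0.00952). Spearman's rho was 0.747 (exact permutation p = 0.0413, adjusted 0.0825). These 8 tumors pool Adamts7 and vector tumors, and the groups did not overlap in either value. Beta chain TPM was 3.52 to 9.89 against 10.6 to 20.8, and TRB clones numbered 5 to 13 against 20 to 29. The difference between the groups therefore enters r and rho, which do not show a relation within a group. Without the 2 tumors farthest from the median TPM, r was 0.769 (exact permutation p = 0.0806, n = 6), so that r stayed similar in size but no longer passed with 6 tumors. For Trac and TRA clones r was 0.661 (exact permutation p = 0.0830) and rho 0.575 (exact permutation p = 0.143), and r was 0.785 without the 2 farthest tumors (exact permutation p = 0.0778, n = 6). With 5 tumors in a group, no value within a group was computed.

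**Figure D4:**
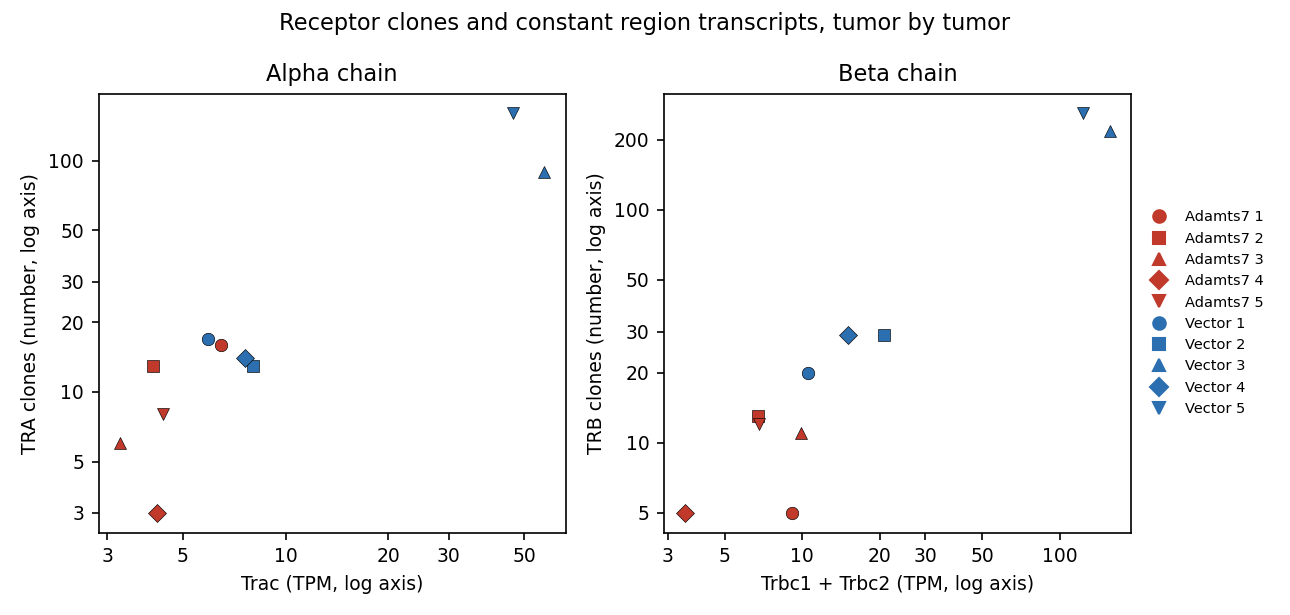
Number of clones in the repertoire table against constant region TPM in each tumor, both on log axes, for the alpha chain (left) and the beta chain (right); red symbols are Adamts7 tumors and blue symbols vector tumors. Vector tumors 3 and 5 stand apart at the upper right in both panels, and Adamts7 tumor 1, with 5 TRB clones at 9.15 TPM, lies lowest against the beta chain trend.

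Variable segments, described without a test because they are low and similar to each other, were most numerous in vector tumors 3 and 5 for both chains, and the groups overlapped. The table lists 21 Trbv genes, of which 7, 6, 3, 7 and 4 were above 0 TPM in the Adamts7 tumors and 5, 14, 20, 11 and 18 in the vector tumors. Of 80 Trav genes, 9, 7, 20, 5 and 4 were above 0 against 16, 16, 55, 16 and 41. Adamts7 tumor 3, with 20 Trav genes, was above 3 of the vector tumors although its Trac level was the lowest of all.

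Among single segments, Trbv3 was at 0 to 0.68 TPM in the Adamts7 tumors and at 1.29, 3.96, 20.5, 3.03 and 9.28 TPM in the vector tumors. Trbv26 reached 22.7 TPM in vector tumor 3 and Trbv16 reached 20.3 TPM in vector tumor 5, and each was at most 5.81 TPM elsewhere. The most abundant alpha segment, Trav4-4-dv10, did not follow Trac. It was at 4.94, 2.72, 3.00, 0 and 5.19 TPM in the Adamts7 tumors and at 23.3, 9.31, 1.14, 6.15 and 0 TPM in the vector tumors, near or at 0 in the 2 tumors with the most Trac.

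Genes that work with the receptor also had lower means in the Adamts7 tumors. Of 24 listed genes of receptor assembly, signaling and the lineages behind it, 17 had a mean of at least 1 TPM. Of these 17, 16 had a negative log2 fold change, as did 60.2% of all genes. Limma called 0 of these 17 at an adjusted p under 0.05, against 0.196% of all genes called lower. An unadjusted limma p under 0.05 was found for 13, against 15.3% of all genes that were lower at that level. Their median log2 fold change was -1.33, beside -0.10 over all genes. It was -0.44 without vector tumors 3 and 5, with 16 of 17 negative, against 64.5% of all genes. In that fit 4 of 17 had an unadjusted limma p under 0.05, where 1510 of all 15276 genes were lower at that level. Lck, the kinase bound to the tails of CD4 and CD8, was at 5.48 ± 2.24 TPM against 27.6 ± 25.5 TPM (SD, n = 5 each), with a log2 fold change of -1.71 (SE 0.55, limma adjusted p = 0.154), and -0.77 without vector tumors 3 and 5 (limma adjusted p = 0.340). Fyn, a kinase made by many cell types, was the positive one at 0.05, with means of 51.2 and 49.7 TPM. The other 7 genes, Trat1, Ptcra, Trgc1, Trgc3, Themis, Bcl11b and Gata3, were below the minimum level.

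Markers of other leukocytes were lower on average in the same tumors, and their part in the differences was not tested. Of 9 natural killer cell genes, all 9 were negative with a median of -1.47, and their summed level was 31.0 to 97.5 TPM in the Adamts7 tumors and 60.3 to 589 TPM in the vector tumors; none of the 9 was below the minimum level. Of 9 tested dendritic cell genes all were negative with a median of -0.96, and the list summed to 10.9 to 31.2 against 25.3 to 112 TPM. All 9 pan-leukocyte genes were negative with a median of -1.17. Of 10 macrophage genes 8 were negative with a median of -0.61, and limma called 0 genes of any of these 4 lists. Over all genes 60.2% were negative, with 0.196% called lower and 0.0262% called higher. Without vector tumors 3 and 5 the medians were -0.47 for natural killer cell, -0.49 for dendritic cell, -0.30 for pan-leukocyte and 0.07 for macrophage genes, where 64.5% of all genes were negative. Of 8 B cell genes 2 reached the minimum level, and of 5 listed keratinocyte genes 0 did, with sums of at most 38.9 and 4.51 TPM in a tumor.

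The 6 genes most like the CD3 chains were found by Pearson's r with the mean log2(TPM + 1) of Cd3e, Cd3d and Cd3g over the 10 tumors, which share the contrast between vector tumors 3 and 5 and the rest. They were Dnase1l3, a secreted nuclease made by dendritic cells and macrophages, with r = 0.998, the T cell costimulatory receptor Cd28 with 0.996, the interleukin-18 receptor chain Il18r1 with 0.995, Ipcef1 and the G protein-coupled receptor Gpr132 with 0.994 each, and the lymphocyte GTPase Gimap7 with 0.993. Over the 8 tumors without vector tumors 3 and 5 these r values were 0.951 to 0.987, with Dnase1l3 the highest of the 6. The choice of the 6 genes had used these 8 tumors too, and other genes were not ranked over the 8. Dnase1l3 itself was at 2.26, 1.41, 1.41, 0.75 and 0.92 TPM in the Adamts7 tumors and at 2.65, 3.95, 26.1, 3.03 and 23.4 TPM in the vector tumors, without overlap.

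Because the CD3 chains and Cd247 were highest in the same 2 tumors, their RefSeq promoters (GRCm38.p6, 250 bases before to 50 after the start) were searched on both strands for short motifs of lymphocyte transcription factors. RefSeq promoters matched 5 members, Cd247, Cd8a, Cd3g, Cd3d and Cd3e. The ETS family core ACTTCC, read as GGAAGT on the other strand, was in 3 of the 5, and in 23.8% of all 32851 promoters. The E-box CANNTG was in 5 of 5, against 72.3% of all promoters, and the TCF core CTTTGA in 2 of 5, against 16.0%. The GATA core AGATAA was in 1 of 5, against 11.2%, and the RUNX core TGTGGT in 0 of 5, against 16.8%. None of these motifs contains another, and a match describes the sequence and not a bound site. The windows around ACTTCC are printed to show the 3 promoters of signaling chains that hold it, with the motif in capitals, for Cd3e at chr9:45009612-45009641 (minus strand), Cd3d at chr9:44981575-44981604 (plus strand) and Cd247 at chr1:165788611-165788640 (plus strand). Counted from the start, the first base of the motif is at -18, -199 and -58; Cd247 holds a further match at 22, after the start, whose window is not printed.
Cd3e: agtcccctctacACTTCCtgtgtggggttc
Cd3d: aaattcccttacACTTCCtagaattctgaa
Cd247: caaaccttcagaACTTCCtgcctatgaatc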

How the data were processed

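Bulk RNA of 10 tumors was measured, 5 in each group, and groups and replicate numbers were taken from the titles. Per the labels' protocols, polyadenylated RNA was enriched on oligo(dT) beads, and paired reads of 150 bases were demultiplexed with bcl2fastq 2.17. The deposited expression table holds log2 values of TPM + 1 per gene symbol; the submitters' processing notes name RSEM and mm39 but no annotation. Reads shared by similar genes are divided by estimate in RSEM. Of the authors' deposited comparison of the groups, for which those notes name DESeq2, the log2 fold change, its standard error and the adjusted p-value are quoted. The mean normalized signal and the test score in that deposited table were made by the authors; the score served to rank the members. Symbols were found for 28805 of its 30040 identifiers. Clonotype and clone numbers, entropy and clonality are other measures deposited by the authors, with no settings stated. Clone numbers are small and rise with depth, which is unknown.

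The 15276 genes whose mean reached 1 TPM entered limma 3.58.1 (R 4.3.3) as log2(TPM + 1). The model had the group alone and a prior variance with a trend, and p-values were adjusted over these genes by Benjamini-Hochberg, with a threshold of 0.05. Adding 1 TPM understates changes of low genes. Repertoire measures and ratios were compared by two-sided exact permutation tests in Python 3.11.15 with scipy 1.17.1, adjusted over 20 measures and over 10 ratios. For ratios 0.1 TPM or 0.5 clones were added. The gene test and the permutation test were tested on simulated data. No pair of tumors had identical values.

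The members, gene lists, tests and the tumors left out were chosen with earlier results of these data known. Besides the members the text names Adamts7, Cd8b1 and Ptprc, up to 3 genes with the smallest p of a list (1 such gene is not reported here), the 6 genes most like CD3 and the 3 Trav and 3 Trbv genes with the highest mean. Genes named beyond these, such as Trgc2, Fyn and those below the minimum level, were chosen after their values were seen. Alternatives were pseudocounts of 0.1 and 0.5 TPM, no filter or one of 5 TPM, 2 scalings, a constant prior variance, array weights, a replicate block, log2 and rank scales, each tumor left out in turn, and the sets without vector tumors 3 and 5, which were added later. Coordinates and sequences are of GRCm38 and its patch GRCm38.p6.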

Additional observations from a re-analysis of the deposited data

Results flagged for a closer look

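Of 62 groups of values checked for a single tumor far from the rest of its group, 2 were marked, where chance marks about 1 in 20. Ptprc, the leukocyte gene that CD3 was set against, was at 23.4 TPM in Adamts7 tumor 1, and its distance to the next Adamts7 tumor was 0.711 of the range of the group. That tumor was also the highest of its group for 9 of the 10 members. Adamts7 was at 18.2 TPM in the tumor labelled Adamts7 5, with a distance of 0.728 of the group's range to the next tumor. No value of a member gene was marked in either group of 5.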

How the results depend on the processing

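With all 10 tumors, 0 of 9 tested members were called, also when each tumor was left out in turn (0 to 0), with other pseudocounts, filters, scalings and variance models, and with the replicate block. Array weights called 1 member, Cd8a, and 1 of the other receptor genes, Cd8b1. Without vector tumors 3 and 5 and the tumor labelled Adamts7 5, 1 member was called. Over all genes limma called 30 lower and 4 higher, 0 and 0 with the replicate block, 956 and 263 with array weights, 603 and 197 without those 3 tumors, 484 and 171 without the tumor labelled Adamts7 5, 9 and 1 with no filter, and 5 to 39 lower and 0 to 4 higher when any other tumor was left out; scaling by median of ratios gave 21 and 8, and quantile normalization 20 and 10. Same-numbered tumors did not deviate together, with correlations of -0.278 to 0.262 and 1 tumor closest to its own number. Of the 5 repertoire measures that passed, 0 passed when any tumor was left out (0 to 0, exact permutation adjusted p 0.0529 to 0.0635, where the smallest p is 0.0159). Likewise 0 passed without vector tumors 3 and 5, and 0 when the tumor labelled Adamts7 5 was dropped too. With the replicate block, whose smallest p is 0.0625, 0 passed. These designs are too small to pass. On log2 and rank scales the number was 5 and could not fall, since groups that do not overlap stay apart on both scales. The number of ratios that passed went from 0 to 5 with 1 TPM and to 5 with 0.5 TPM added. These 5 include Trdc to Trac, which the added value sets and which enters the adjustment of the others. The difference in TRA clonality, 0.00236, turned to -0.000636, -0.0112, -0.00177, -0.00947 and -0.00704 without Adamts7 tumors 2 and 3 and vector tumors 1, 2 and 4, and ranged from -0.0112 to 0.0160. The log2 difference of TRA clones to Trac turned from -0.21 to 0.0989 without Adamts7 tumor 4, which had 3 TRA clones, and ranged from -0.40 to 0.0989 over the tumors left out. The r of beta chain transcripts and TRB clones was 0.769 without the 2 farthest tumors. The cause of these changes was not tested. Depth is unknown, so the precision of low values such as Trdc cannot be given.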
